A study of Homo sapiens with 2 samples.

Results

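The microRNA precursor genes of HL-60 cells were described from 2 Affymetrix Human Gene 1.0 ST arrays. The genes are those whose symbol in the probe annotation has the form of a single microRNA or let-7 gene and whose probe set carries no other symbol, with host genes ending in HG left out. They number 173 of the 18404 genes that at least 1 probe set names alone, and each was read by 1 probe set. HL-60 is a myeloid line established from a promyelocytic leukaemia, and both arrays hold total RNA of the wild-type cells, grown in DMEM with 10% serum and labelled as replicates 1 and 2. They form 1 group, no agent or genetic change is named for it, and separate cultures are not stated, so the spread between the arrays may be technical. The study concerns RNAs that bind the DNA methyltransferase DNMT1, but no second condition is analysed here, and no test between groups was possible.

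A microRNA gene is transcribed as a long primary transcript in which the future microRNA lies in a hairpin. The nuclear enzyme DROSHA with its partner DGCR8 cuts the hairpin out, XPO5 exports it, DICER1 trims it to a short duplex, and an Argonaute protein takes up a strand that recognises messenger RNAs mainly through its seed, bases 2 to 8. In myeloid cells miR-223 accompanies granulocyte maturation, miR-142 is abundant across blood cells, and miR-155 and miR-146a belong to the response to inflammatory signals. A probe set placed on such a gene can read the primary transcript, the host transcript or the hairpin, and the deposited values do not tell these apart. The values below are therefore no measure of mature microRNA. Fewer cells with a transcript and less RNA per cell cannot be told apart in bulk RNA.

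The 4 microRNA genes with the highest signals were MIR139, MIR181B1, MIR326 and MIR185. Their mature sequences are shown, 5′ to 3′ from RefSeq (GRCh38.p14), because these were the only genes of the set above both background thresholds used below; capitals mark the seed. MIR223 is added as the microRNA best known from granulocytes.
hsa-miR-139-5p: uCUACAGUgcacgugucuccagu
hsa-miR-139-3p: uGGAGACGcggcccuguuggagu
hsa-miR-181b-5p: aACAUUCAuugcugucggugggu
hsa-miR-181b-3p: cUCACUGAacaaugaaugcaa
hsa-miR-326: cCUCUGGGcccuuccuccag
hsa-miR-185-5p: uGGAGAGAaaggcaguuccuga
hsa-miR-185-3p: aGGGGCUGgcuuuccucugguc
hsa-miR-223-3p: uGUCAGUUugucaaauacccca
Of the 173 genes, 164 had a mature sequence and 155 a hairpin sequence in the RefSeq table.

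Most microRNA genes read at background. Background was set from 359 olfactory receptor genes, which belong to the sensory neurons of the nose, and a gene was called above it where its log2 RMA signal exceeded their 95th percentile on both arrays, 2.98 on replicate 1 and 2.88 on replicate 2. Of the 173 microRNA genes, 29 (16.8%) passed, against 55.8% of all genes and 77 of 192 small nucleolar and Cajal body RNA genes (40.1%). A further 15 microRNA genes passed on 1 array only, and 129 on neither. The median over microRNA genes was 1.99, equal at that precision to the median of the olfactory receptor genes, while the median over all genes was 3.33. A stricter threshold, the 95th percentile of 115 keratin-associated protein, bitter taste receptor and beta-defensin genes, lay at 5.41 and 5.23, and 4 microRNA genes (2.31%) exceeded it on both arrays, against 17.0% of all genes. No test of these differences was made, since probe sets differ in their probes and the signals of different genes are not relative abundances.

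**Figure D1:**
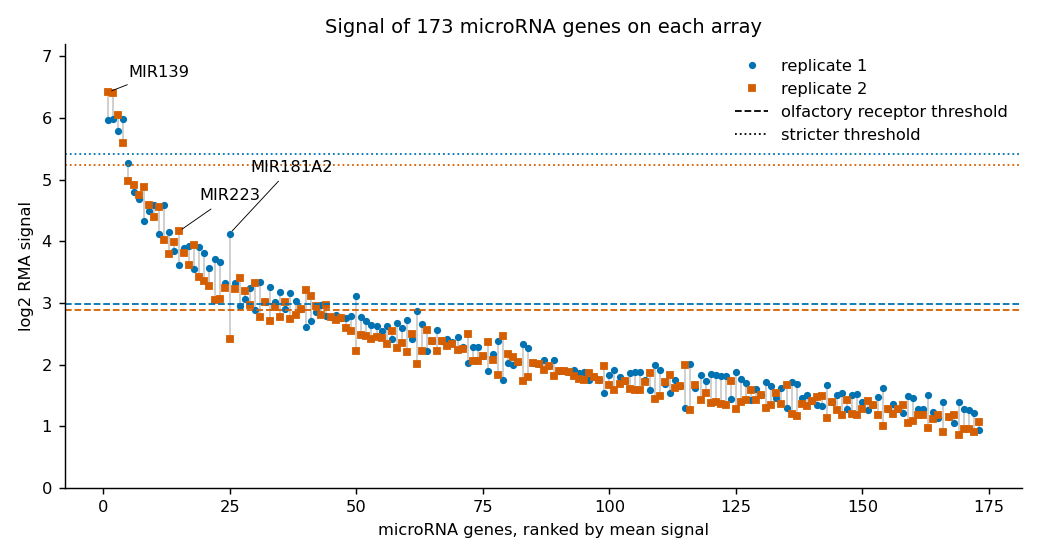
Log2 RMA signal of the 173 microRNA genes on replicate 1 (circles) and replicate 2 (squares), ranked by the mean of the arrays; grey lines join the arrays of a gene, and dashed and dotted lines in the colour of each array are the olfactory receptor and the stricter threshold. The signals fall steeply over the first genes, 4 of which lie above the stricter threshold on both arrays, and 129 genes lie below the olfactory receptor threshold on both.

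The 4 highest genes lay above the stricter threshold on each array. MIR139, which lies in the gene of the phosphodiesterase PDE2A, read 5.97 on replicate 1 and 6.42 on replicate 2. MIR181B1, of a family known for its roles in lymphoid and myeloid blood cells, read 5.98 and 6.40. MIR326 read 5.79 and 6.05. MIR185, whose product has been reported to target the DNMT1 messenger, read 5.98 and 5.60. The fifth, MIR193A, known as a repressor of the receptor KIT, read 5.27 and 4.98 and stayed below the stricter threshold on both arrays. MIR210, the classical hypoxia-induced microRNA gene, read 4.80 and 4.90. MIR339 read 4.69 and 4.76, MIR320A 4.32 and 4.88, MIR197 4.48 and 4.58, and MIR194-2 4.58 and 4.39. These 6 genes were above the olfactory receptor threshold only.

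At the olfactory receptor threshold itself the calls rest on small margins. The genes nearest above it were MIR196A1 (3.01 on both arrays), MIRLET7D (3.01 and 2.93) and MIR191 (3.07 and 3.19). The genes nearest below it were MIR103A2 (2.95 and 3.40), MIR128-1 (2.91 on both arrays) and MIR7-2 (3.04 and 2.80), each of which passed on 1 array only. Over the microRNA genes the SD of the replicate difference was 0.33, or 0.23 per array, against 0.39 and 0.28 over all genes, so the genes just inside and just outside the threshold are not separated beyond the spread between the arrays.

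Among 11 measured members of a list of 15 myeloid and leukocyte microRNAs, 3 were above the olfactory receptor threshold, namely MIR181B1, MIR223 and MIR150. For this and the lists below, the shares to compare are 16.8% of the 173 microRNA genes and 55.8% of all genes. The lists are small, and no departure from these shares was tested. MIR223, induced by C/EBP factors during granulocyte development, read 3.61 on replicate 1 and 4.16 on replicate 2 (mean 3.89 ± 0.39, SD, n = 2). MIR150, whose product targets the MYB messenger and is known mainly from lymphocytes, read 3.93 and 3.61. MIR142, MIR21 and MIR146A were at background on both arrays: MIR142 read 1.89 and 1.58, MIR21, commonly raised in tumours, 1.68 and 1.71, and MIR146A, a feedback regulator of NF-kB signalling, 1.62 and 1.36. The MIR155 probe set also carries the symbol of its host gene and read 2.54 on both arrays, below the threshold. The count of this list was 4 without replicate 1 and 5 without replicate 2, because MIR503 passed on replicate 2 only and MIR181A2 and MIR181B2 on replicate 1 only.

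Of the clusters related to miR-17-92, the proliferation-associated cluster that MYC activates, 6 of 15 genes were measured with a probe set of their own and 1 passed. MIR25 read 3.66 and 3.06. Its neighbours in the gene of the replication helicase subunit MCM7 did not pass on both arrays: MIR106B read 3.11 and 2.22, so it passed on replicate 1 only, and MIR93 read 2.62 and 2.45. The lowest member was MIR19B2, at 1.46 and 1.08. MIR17 has no probe set of its own here and is not reported.

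Of 10 measured let-7 family genes, which LIN28 proteins keep from maturing in stem cells, 2 passed, in a set of which 16.8% did: MIRLET7I (3.32 and 3.22) and MIRLET7D (3.01 and 2.93). MIRLET7A1 read 2.59 and 2.35, and MIRLET7C, at 1.39 and 0.90, was the lowest. All 9 measured genes of a list of tumour-suppressor microRNAs lay below the threshold on both arrays, as did 129 of the 173 microRNA genes. The highest were the p53-induced MIR34B (2.28 and 2.05) and MIR26A1 (2.28 and 2.05), while MIR15A (2.13 on both arrays) and MIR16-1 (1.06 and 1.18), whose products restrain BCL2, lay lower. Below it as well were the 5 measured genes of a list of microRNAs known to target DNMT messengers, a list that does not hold MIR185. They ran from MIR152 (2.75 and 2.59) and MIR29A (1.88 and 1.28) to MIR148A (1.27 on both arrays). A probe set shared by MIR29C and its host MIR29B2CHG was above the threshold on both arrays, with a mean of 4.05. Of 4 genes inside the HOX clusters, MIR196A1 passed, MIR196A2 read 2.39 and 1.83, and MIR10B was the lowest at 1.53 and 1.18.

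In the 5 lists of microRNA genes of other tissues, 3 genes were above background on both arrays, in a set of which 16.8% passed. The measured genes were 2 erythroid, 4 muscle, 11 neural, 2 pluripotency and 13 epithelial, endothelial and liver genes. Both erythroid genes were near the bottom of the set, MIR451A at 1.13 and 1.18 and MIR144 at 1.21 and 0.90. The 4 measured muscle genes lay below the threshold, from MIR133B (2.26 and 1.80) and MIR206 (1.87 and 1.74) to MIR1-1 (1.28 and 1.43), as did the pluripotency genes MIR302A (1.65 and 1.35) and MIR302B (1.36 and 1.19). Of 11 neural genes 1 passed, MIR7-3 (3.57 and 3.27), with MIR7-2 and MIR128-1 just below and MIR9-1 lowest (1.30 and 1.67). The neural count was 3 without replicate 1 and 2 without replicate 2. Of 13 genes of epithelial, endothelial and liver microRNAs 2 passed, MIR194-2 and the pancreatic islet gene MIR375 (4.58 and 4.02), and MIR215 was the lowest (1.497 and 0.97). With a threshold taken from the muscle, neural, pluripotency and epithelial, endothelial and liver lists (4.13 and 3.71), 12 of the 173 genes were above background. The genes of these lists are themselves among the 173, so a few exceed it on each array by construction. MIR194-2 and MIR375 are among the 12.

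**Figure D2:**
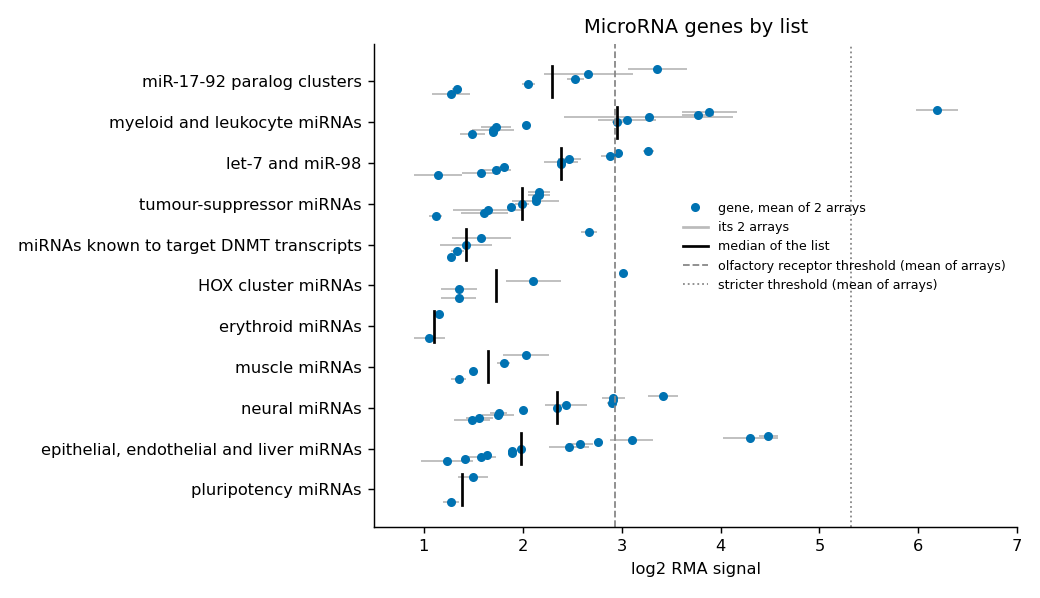
Mean log2 RMA signal of each measured member of the 11 microRNA lists (points), with grey lines to the values of its arrays and black bars at the list median; vertical lines mark the thresholds averaged over the arrays. The myeloid and leukocyte list spans from 1.49 to 6.19 and holds the only listed gene above the stricter threshold, and the members of the tumour-suppressor, DNMT-targeting (without MIR185, which is on no list), erythroid, muscle and pluripotency lists lie below the olfactory receptor threshold.

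Nearly all genes that process and use microRNAs passed. Of 21 such genes 19 were above the olfactory receptor threshold and 11 above the stricter one, which 55.8% and 17.0% of all genes exceeded. The helicases DDX17 (8.30 ± 0.19) and DDX5 (7.64 ± 0.14), cofactors of hairpin excision, and DROSHA (7.72 ± 0.18) read highest. DGCR8 read 5.12 ± 0.02, the exporter XPO5 7.15 ± 0.36 and DICER1 6.87 ± 0.27 (SD, n = 2 for each gene). Of the Argonaute genes AGO2 read 6.16 ± 0.04, AGO3 6.01 ± 0.17, AGO4 4.96 ± 0.34 and AGO1 4.85 ± 0.05. The DICER1 partner TARBP2 was the lowest that passed (3.23 ± 0.18). The 2 genes that did not were LIN28A (2.22 ± 0.20) and LIN28B (1.30 ± 0.12), the stem cell proteins that block let-7 processing. As a check of the labelled cell type, 7 of 7 promyelocyte markers passed, MPO at 8.21 and 7.48 among them. Of the 7, 3 were lower by more than 1 on replicate 2: CTSG (8.99 and 7.24), PRTN3 (7.95 and 6.47) and MS4A3 (5.98 and 4.88). Of 5 measured markers of other cell types 2 passed, COL1A1 at 3.75 and 3.63 and GP9 at 3.12 and 3.28, and CD3E, ALB and EPCAM did not. COL1A1 and GP9 read higher than AZU1 on each array. The part of these markers in the results was not tested.

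The genes that host microRNAs were mostly above background where the microRNA genes were not. Among 37 pairs of a microRNA gene and the gene it lies in, involving 31 hosts, the microRNA gene passed in 4 and the host in 27, where 55.8% of all genes passed. A host of several microRNA genes, such as MCM7, counts once per pair here, whereas the share of all genes counts each gene once. Both passed in 2 pairs (MIR25 in MCM7 and MIR149 in the glypican gene GPC1), the microRNA gene alone in 2, the host alone in 25 and neither in 8. MIR106B, MIR93 and MIR25 lie in MCM7, which read 7.999 and 7.67. MIR21 lies in VMP1 (6.81 and 6.98), and MIR186 (1.75 and 1.61) in ZRANB2 (7.91 and 7.82). MIR15B (1.85 and 1.37) and MIR16-2 (1.89 on both arrays) lie in the condensin gene SMC4, which read 7.41 and 7.55. MIR15A and MIR16-1 lie in the noncoding gene DLEU2 (5.27 and 5.52). In the opposite direction MIR139 passed both thresholds, whereas PDE2A read 3.10 and 2.65 and passed on replicate 1 only, and MIR211 (3.85 and 3.98) passed while its host TRPM1, a melanocyte channel gene, did not (2.40 and 2.01).

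Across the 37 pairs the signals of microRNA gene and host had a Pearson's r of -0.12 and a Spearman's rho of -0.01. This is a description over pairs measured on the same arrays, in which several pairs share a host. The RefSeq table placed 35 of the 37 microRNA genes within the span of the named host on its strand. Taking in place of the listed pairs every same-strand host in RefSeq with a probe set here gave 63 pairs, with r = -0.07, the host alone above background in 36 and both in 8. This wider set was chosen after the values had been seen. It adds MIR185, whose host TANGO2 read 3.74 and 3.57, and MIR197, whose host GNAI3 read 7.14 and 7.06.

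**Figure D3:**
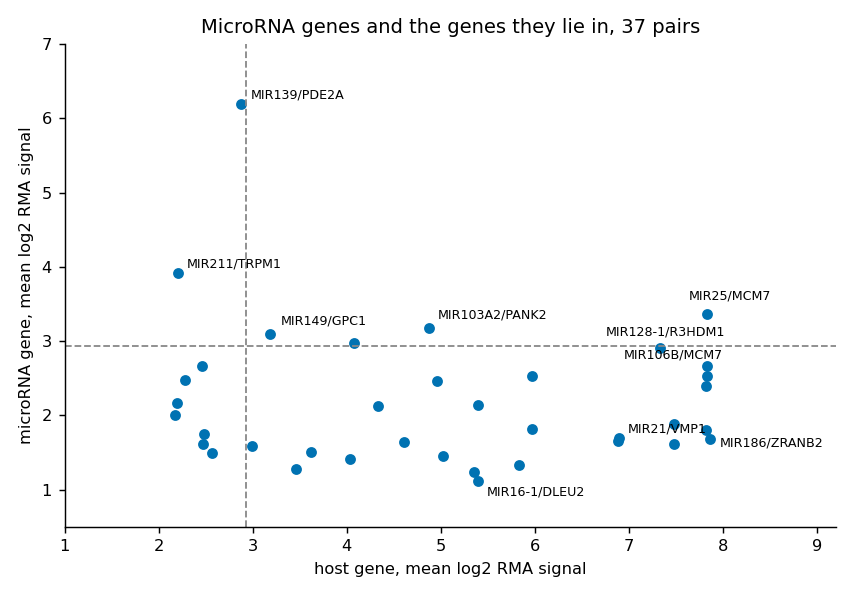
Mean log2 RMA signal of the microRNA gene (vertical axis) and of its host gene (horizontal axis) in 37 listed pairs, with dashed lines at the olfactory receptor threshold averaged over the arrays. Most points lie at lower right, where the host is above the threshold and the microRNA gene is not, and MIR139 and MIR211 stand at upper left.

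MicroRNA genes next to each other are commonly cut from the same primary transcript. Neighbours on the same strand with gaps of at most 10 kb formed 28 groups, holding 73 genes. Of these groups 21 had no member above background, 7 had some and 0 had all. As 16.8% of the 173 microRNA genes passed, most groups of this size would have no member above background whatever their genes. Whether neighbours agree more or less than other genes was not tested. In the largest contrast MIR181B1 read 5.98 and 6.40 while its neighbour MIR181A1 read 1.92 and 1.49. The other 6 groups of mixed calls passed through MIR194-2 beside MIR192 (2.67 and 2.27), MIR99B (4.12 and 4.55) beside MIRLET7E (2.39 on both arrays) and MIR125A (2.76 and 2.48), MIR212 (3.89 and 3.80) beside MIR132 (2.63 and 2.34), MIRLET7D, MIR25 and MIR191. The margin was small in the last, where MIR191 read 3.07 and 3.19 and MIR425 3.17 and 2.74. The hairpins of the MIR181 neighbours (GRCh38.p14, minus strand, chr1:198858873-198858982 for MIR181B1 and chr1:198859044-198859153 for MIR181A1) are shown because they carry the same seed and opposite calls; capitals mark the mature strands.
MIR181B1: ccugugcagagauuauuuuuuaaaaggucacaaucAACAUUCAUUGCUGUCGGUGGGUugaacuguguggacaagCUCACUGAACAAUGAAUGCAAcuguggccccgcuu
MIR181A1: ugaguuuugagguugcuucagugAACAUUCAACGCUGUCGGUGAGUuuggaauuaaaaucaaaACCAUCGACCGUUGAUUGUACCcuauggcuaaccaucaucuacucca

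**Figure D4:**
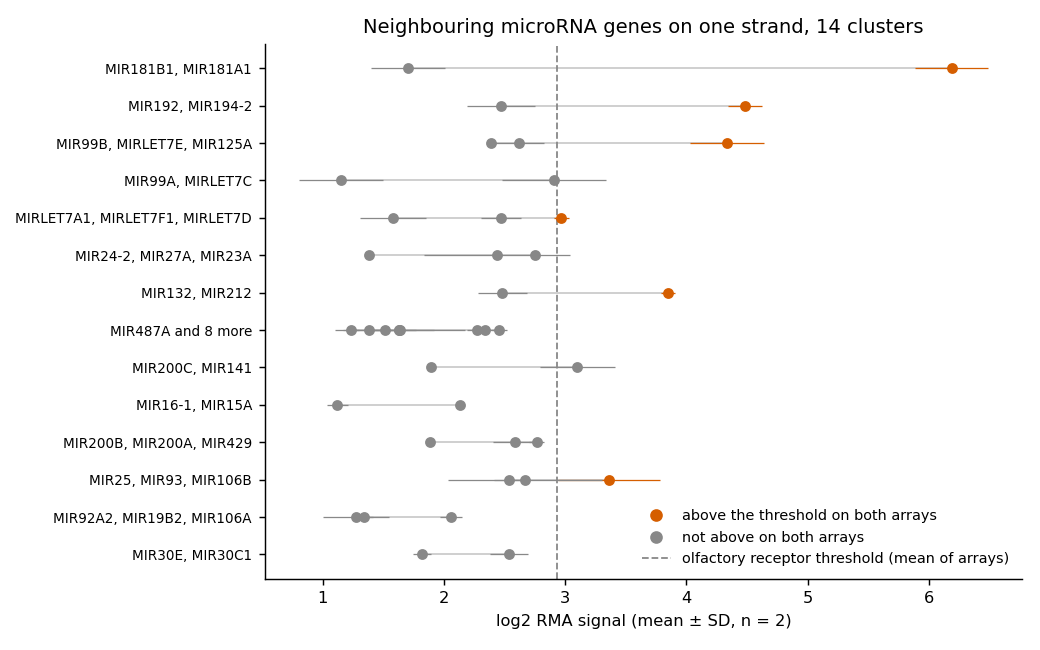
Mean log2 RMA signal with its SD over the 2 arrays for the members of the 14 groups of neighbouring microRNA genes with the widest range of signals, 1 row per group; orange points passed the olfactory receptor threshold on both arrays and grey points did not. In no group did all members pass.

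Genes that encode the same mature microRNA at different sites of the genome were compared in pairs. The RefSeq table, with a mature sequence for 164 of the 173 genes, gave 18 pairs that share one, so further copies may be missing. Of the 18 pairs, 14 had no member above background, 4 had 1 and 0 had both. As 16.8% of the 173 genes passed, most pairs of microRNA genes of any kind would have no member above background. Whether copies agree more than other pairs was not tested. MIR181B1 passed both thresholds, while MIR181B2 read 3.34 and 2.76. MIR194-2 read 4.58 and 4.39 and MIR194-1 1.43 and 1.73. MIR138-1, known from neurons, read 3.80 and 3.35 and MIR138-2 2.77 on both arrays, and MIR196A1 and MIR196A2 made up the fourth pair. The MIR194 hairpins (GRCh38.p14, minus strand, chr11:64891355-64891439 for MIR194-2 and chr1:220118157-220118241 for MIR194-1) hold an identical miR-194-5p, marked by the first capitals, in flanks of different composition: G and C make up 62.4% of the hairpin of MIR194-2 and 41.2% of that of MIR194-1.
MIR194-2: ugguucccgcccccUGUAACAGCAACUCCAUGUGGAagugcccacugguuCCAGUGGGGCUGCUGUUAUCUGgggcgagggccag
MIR194-1: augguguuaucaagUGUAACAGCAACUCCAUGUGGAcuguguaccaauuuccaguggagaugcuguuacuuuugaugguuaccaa

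Seeds shared by at least 3 measured genes with a RefSeq mature sequence were compared, and in none of these families did all members pass. Of the 173 microRNA genes 16.8% passed, and at that share a family of at least 3 genes would seldom pass whole. No departure of a family from that share was tested. The let-7 seed GAGGUAG was shared by 10 measured genes, of which 2 passed. The miR-181 seed ACAUUCA was shared by 5, of which MIR181B1 alone passed, with MIR181A1 the lowest at a mean of 1.70. The miR-15/16 seed AGCAGCA was shared by 5 genes and the miR-30 seed GUAAACA by 4, and 0 of these passed. In the seed AUUGCAC, MIR32 (3.72 and 3.04) and MIR25 passed and MIR92A2 (1.99 and 2.12) did not. Of the 3 genes with the seed ACCCGUA, MIR99B passed, MIR99A (2.60 and 3.21) passed on replicate 2 only and MIR100 (1.62 and 1.00) on neither array.

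The signal of a microRNA gene moved with the base composition of its hairpin. Over the 155 genes with a RefSeq hairpin, the mean signal correlated with the share of G and C at r = 0.63 (rho = 0.67), and with hairpin length at r = 0.06. These are descriptions across genes read on the same arrays. Of the 155 genes 27 passed, against 55.8% of all genes. With the hairpins divided into 3 bins by G and C, 18 of 52 genes passed in the richest bin (54.0% to 73.6%), where the median was 2.82. In the middle bin 5 of 51 passed (median 1.95), and in the poorest (28.8% to 44.8%) 4 of 52 passed (median 1.54). Among the 25 genes of the muscle, neural, pluripotency and epithelial, endothelial and liver lists that have a hairpin sequence, the correlation with G and C was 0.69. The part of base composition in the calls was not tested, and probe sequences were not used here.

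Of the 4 genes above both thresholds, 3 belonged to the richest bin and MIR181B1 (44.5% G and C) to the poorest. MIR223 (53.6%) stood in the middle bin. The hairpins of the highest and the 2 lowest genes are printed with their mature strands in capitals, and that of MIR181B1, the second highest, is given above. They are those of MIR139 (58.8% G and C, chr11:72615063-72615130, minus strand) from the top, and of MIR144 (50.0%, chr17:28861533-28861618, minus strand) and MIR101-2 (40.5%, chr9:4850297-4850375, plus strand) from the bottom, all in GRCh38.p14. MIR144 belonged to the middle bin. MIR101-2 read 0.94 and 1.08, the lowest mean of the set.
MIR139: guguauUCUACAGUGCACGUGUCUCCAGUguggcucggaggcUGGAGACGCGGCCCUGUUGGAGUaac
MIR144: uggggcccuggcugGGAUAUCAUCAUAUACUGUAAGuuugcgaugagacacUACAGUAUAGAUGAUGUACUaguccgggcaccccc
MIR101-2: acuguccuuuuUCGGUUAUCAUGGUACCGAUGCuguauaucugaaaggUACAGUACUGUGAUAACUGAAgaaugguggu

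**Figure D5:**
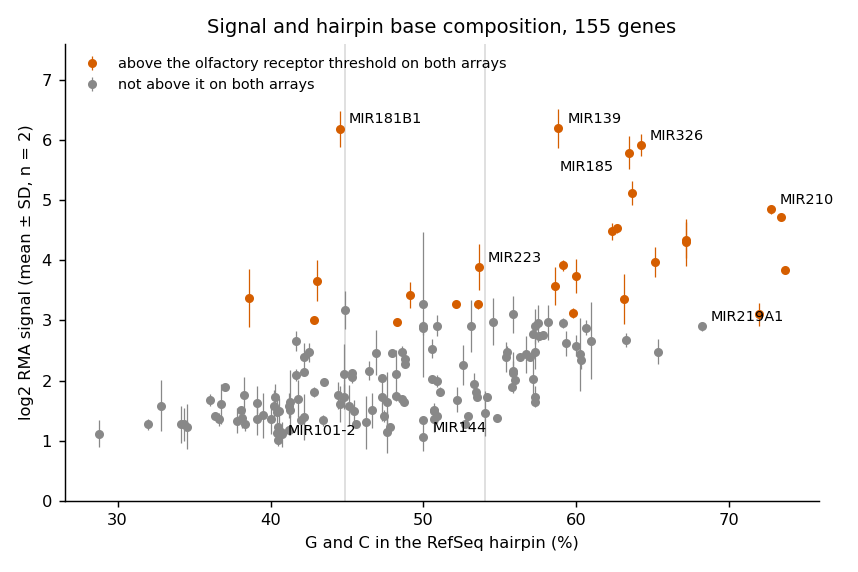
Mean log2 RMA signal with its SD over the 2 arrays against the share of G and C in the RefSeq hairpin, for 155 microRNA genes; orange points passed the olfactory receptor threshold on both arrays, and vertical lines bound the 3 bins. The passing genes gather at the right, where 18 of 52 passed, against 27 of all 155, and MIR181B1 stands high among hairpins poor in G and C.

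Between the arrays the microRNA genes kept their order (r = 0.95, rho = 0.92 across genes, which are not independent replicates). On the log2 scale 0 microRNA genes were higher by more than 1 on replicate 2, against 1.08% of all genes, and 1 was lower by more than 1, against 0.880% of all genes. The 3 promyelocyte markers named above were also lower on replicate 2, and whether this bears on the microRNA genes was not tested. That gene was MIR181A2, which read 4.12 on replicate 1 and 2.42 on replicate 2. Of the genes that passed on 1 array or both, the next largest differences were those of MIR106B, MIR32, MIR99A, MIR25 and MIR181B2, of which MIR99A alone was higher on replicate 2. MIR106B and MIR25, both in MCM7, were lower on replicate 2, as was MCM7. The values were lower on replicate 2 for 102 microRNA genes, higher for 46 and equal for 25 (median difference -0.10, against -0.04 for all genes), but lower for only 88 once the arrays were quantile-normalized together and for 86 after removal of a loess trend, when the median difference was -0.01 and 0.00.

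Equal values were common in the set. The 25 genes with the same deposited value on both arrays, to 6 decimals, were 14.5% of the microRNA genes. The share was 5.23% of all genes and 10.3% of the olfactory receptor genes. Among genes with a mean signal under 3 the shares were 17.0% of 141 microRNA genes, 8.21% of all such genes and 10.8% of 344 olfactory receptor genes. The same differences also recurred in different genes: 7 microRNA genes differed by -0.10 with the same decimals, as did 93 genes in all, and 118 microRNA genes (68.2%) had a difference other than 0 that at least 1 further gene shared, against 38.2% of all genes and 63.8% of the olfactory receptor genes. An SD of 0 for a gene such as MIR196A1 or MIR15A is therefore no sign of a smaller error. The SD of 0.23 per array over the set is a better guide, though it includes the 25 equal values and may be too small. Over the 29 genes above background it was 0.25.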

How the data were processed

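Per the labels' protocols, HL-60 RNA was isolated in Trizol with a DNase step, and NuGEN reagents amplified and labelled it for 2 arrays. The authors summarised probe sets by RMA, per the submitters' processing notes, and the deposited table holds 1 log2 value per probe set and array. The RMA software and version were not given in the sources used here, and the log base is taken from RMA and the range of values (highest 12.9). Scanner files were not used here. The number of arrays limits the precision.

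Of 32321 probe sets, 19158 carried 1 gene symbol; 19128 of these were matched by Entrez ID to RefSeq (GRCh38.p14) for current symbols. Probe sets of a gene were averaged. The rule matched 1 host gene ending in HG, which was left out. The members and lists were chosen with earlier results of these data known. With 1 group, no p-values were computed. Values are given per replicate or as mean ± SD (n = 2). Named genes were the 10 highest, those above the stricter threshold, the 6 largest differences between arrays, the 2 highest and the lowest of each list, the 3 nearest to the threshold on each side, fixed genes and host pairs; neighbours, copies and seed families were named after their values were seen. Sequences came from the RefSeq microRNA table. The calling step was tested on simulated data in which some members were raised far above background, so it does not bear on calls near the threshold. Alternatives were quantile and loess normalization, the highest probe set per gene, each array alone, other thresholds and a filter on dim genes. Python 3.11.15, numpy 2.4.6, pandas 2.3.3, scipy 1.17.1, statsmodels 0.14.6 and matplotlib 3.10.9 were used.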

Additional observations from a re-analysis of the deposited data

Results flagged for a closer look

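Some probe sets outside the counts of microRNA genes also carried signal. Of 30 probe sets that carry a microRNA symbol together with a further gene symbol, 5 exceeded the olfactory receptor threshold on both arrays and 0 the stricter one. Of the 173 microRNA genes 16.8% and 2.31% exceeded these thresholds, and of all genes 55.8% and 17.0%. The probe set of MIR622 and KRT18, a keratin gene, read 5.25 on replicate 1 and 7.80 on replicate 2. That of DNM3OS and MIR214 read 4.77 and 4.92, and that of MIR29B2CHG and MIR29C had a mean of 4.05. That of MIR23B and AOPEP read 3.94 and 4.06, and that of MIRLET7B and MIRLET7BHG 3.63 and 3.92. Which of the named genes the signal belongs to cannot be told from the values.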

How the results depend on the processing

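No paired analysis was possible because both arrays belong to 1 group. Quantile normalization, removal of a loess trend and the highest probe set per gene left each of the 8 recomputed results within 1.5 times its value, and the 29 genes called above background were the same 29 under each of the 3; as each microRNA gene has 1 probe set, the last could act on them only through the thresholds. On each array alone, 36 to 37 genes passed, the 4 above the stricter threshold stayed 4, the median signal was 1.92 to 2.00, the correlation with G and C 0.62 to 0.63, and the host alone passed in 23 to 24 pairs; list counts moved by over 1.5 times for 1 list without replicate 1 and for 3 without replicate 2. The threshold mattered most. With the olfactory receptors' 99th percentile as threshold (3.60 and 3.76) 16 genes in place of 29 were above background and 2 lists in place of 6 had a member above it. With the second background set as threshold these numbers were 4 genes and 1 list, the host alone passed in 14 in place of 25 pairs, and 11 in place of 19 processing genes passed. With the threshold from microRNA genes of other tissues they were 12 genes and 2 lists. Among these lists is the epithelial, endothelial and liver list, whose genes helped to set that threshold. Restricted to genes above background, the median was 3.89 and 0 genes in place of 1 differed by over 1 between replicates, fewer genes being compared. Alternatives for the correlation with G and C and the processing genes, and other thresholds for the host pairs, were chosen after seeing the data. Probe number and probe sequence, which limit what a dim probe set can show, were not used here.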

Other observations

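The microRNA genes of the imprinted region of chromosome 14, between DLK1 and DIO3, which are expressed from the maternal copy in placenta, brain and other tissues, were all below the threshold. Its 16 measured genes in 3 groups of neighbours included 0 above the olfactory receptor threshold on either array, with a median of 1.61. Of all 173 microRNA genes, 129 passed on neither array, and the median of the 173 was 1.99. Within the region MIR485 was the highest (2.41 and 2.50) and MIR376C the lowest (1.27 and 0.95). A difference of the region from the set was not tested. The genes of the region were grouped after their values had been seen.

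Distinct microRNA genes shared both deposited values in 3 pairs. MIR142 and MIRLET7A2 each read 1.89 and 1.58, MIR33A and MIR154 each 1.28 and 1.19, and MIR195 and MIRLET7E each 2.39 on both arrays. The members of each pair are equal to 6 decimals and lie on different chromosomes.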
